A study of Mus musculus with 6 samples.

Results

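The 10 genes described here encode subunits of the BAF complex, the mammalian SWI/SNF chromatin remodeller: Smarca2, Smarca4, Smarcc1, Smarcc2, Smarcd1, Smarcd2, Smarcd3, Actl6a, Actl6b and Phf10. They were chosen by name, and every probe assigned to them was kept, which gave 10 of the 17012 genes with a named probe, and 17 of the 41174 gene probes on the array. All 17 probes were among the 37254 that were tested, a set that needed a signal well above background on 1 or more arrays. Of the 17, 16 were well above background on all 6 arrays. A single probe represented 5 genes (Smarcd1, Smarcd2, Smarcd3, Actl6a and Phf10), 3 genes had 2 (Smarcc1, Smarcc2 and Actl6b) and 2 had 3 (Smarca2 and Smarca4). The scanner files name transcripts by accession only, so a probe was given its gene through RefSeq, and where in the gene a probe lies is not stated.

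Total RNA was measured with one-colour Agilent microarrays, with 1 array for each of 6 cultures of strain 129 mouse cells. The cultures were E3.5 EpiSC treated with SB431542, untreated E3.5 EpiSC, E5.5 EpiSC treated with SB431542, untreated E5.5 EpiSC, mES cells treated with SB431542 and untreated mES cells. All were kept in Knockout DMEM with 20% KSR (knockout serum replacement), and treated cultures were given 20 µM SB431542 on each of 4 days. Mouse embryonic stem (mES) cells, labelled E3.5, represent the naive state, and epiblast stem cells (EpiSC) represent the primed state. Here EpiSC lines labelled by embryonic day 3.5 and 5.5 were used, and no label says that a line was measured in more than 1 culture per condition. SB431542 inhibits the type I receptor kinases for Activin, Nodal and TGF-beta.

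BAF complexes use the energy of ATP to move nucleosomes. Most positions in the complex can be filled by any of several paralogues, and the set in use differs between cell types: pluripotent cells are known for complexes built on Smarca4, Smarcc1, Smarcd1 and Actl6a, while neurons exchange Actl6a for Actl6b and Phf10 for members of the Dpf family. Smarcd3 is known from the developing heart and nervous system, and Smarca2 is the ATPase that becomes more common in differentiated cells.

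Signals are given as log2 of the processed signal minus the 75th percentile of the array, so that 0 marks a probe at that percentile. Levels of different probes are not set against each other, because probes differ in brightness for the same amount of RNA. Untreated EpiSC were compared with untreated mES cells, and treated with untreated EpiSC, in a limma fit in which both EpiSC lines served as replicates (n = 2 arrays) and let the single mES arrays vary as much as the EpiSC lines do. P-values were adjusted over all 37254 probes by the Benjamini-Hochberg method, and "called" means an adjusted p under 0.05. A change from 1 array to another has no replicate and is described by a 2-fold rule with no test.

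The cell labels were checked against marker genes. The 6 naive markers were all well above background in mES cells, and the summed level of the list, in units of the array's 75th percentile, was 1.58 in E3.5 EpiSC and 2.57 in E5.5 EpiSC against 114.2 in mES cells. The 5 primed markers summed to 39.4 in E3.5 EpiSC and 50.6 in E5.5 EpiSC, against 12.3 in mES cells. Otx2 was higher in the E5.5 line only (log2 difference -0.14 in E3.5 and 2.58 in E5.5 EpiSC). After SB431542 the primed list summed to 3.22 in E3.5 EpiSC, 5.67 in E5.5 EpiSC and 6.57 in mES cells. All 5 probes were at least 2-fold lower with the inhibitor in each EpiSC line, and 3 were in mES cells. Bright probes carry these sums: in untreated mES cells Pou3f1 read 3.41 and the rest of the list -0.04 or below. The 6 neural progenitor markers summed to 174.8 in treated and 12.3 in untreated E3.5 EpiSC, to 134.5 in treated and 7.72 in untreated E5.5 EpiSC, and to 2.45 in treated and 2.44 in untreated mES cells. Of their 8 probes, 7 were at least 2-fold higher with the inhibitor in each EpiSC line, and 2 were in mES cells. Sox1 was not: it read -2.38 in treated and -2.75 in untreated E3.5 EpiSC, and -2.04 and -2.80 in E5.5 EpiSC. Both mES arrays and both E5.5 EpiSC arrays shared slide 1, and each E3.5 EpiSC array lay on a slide of its own, so in the E3.5 line slide and treatment cannot be told apart.

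**Figure D1:**
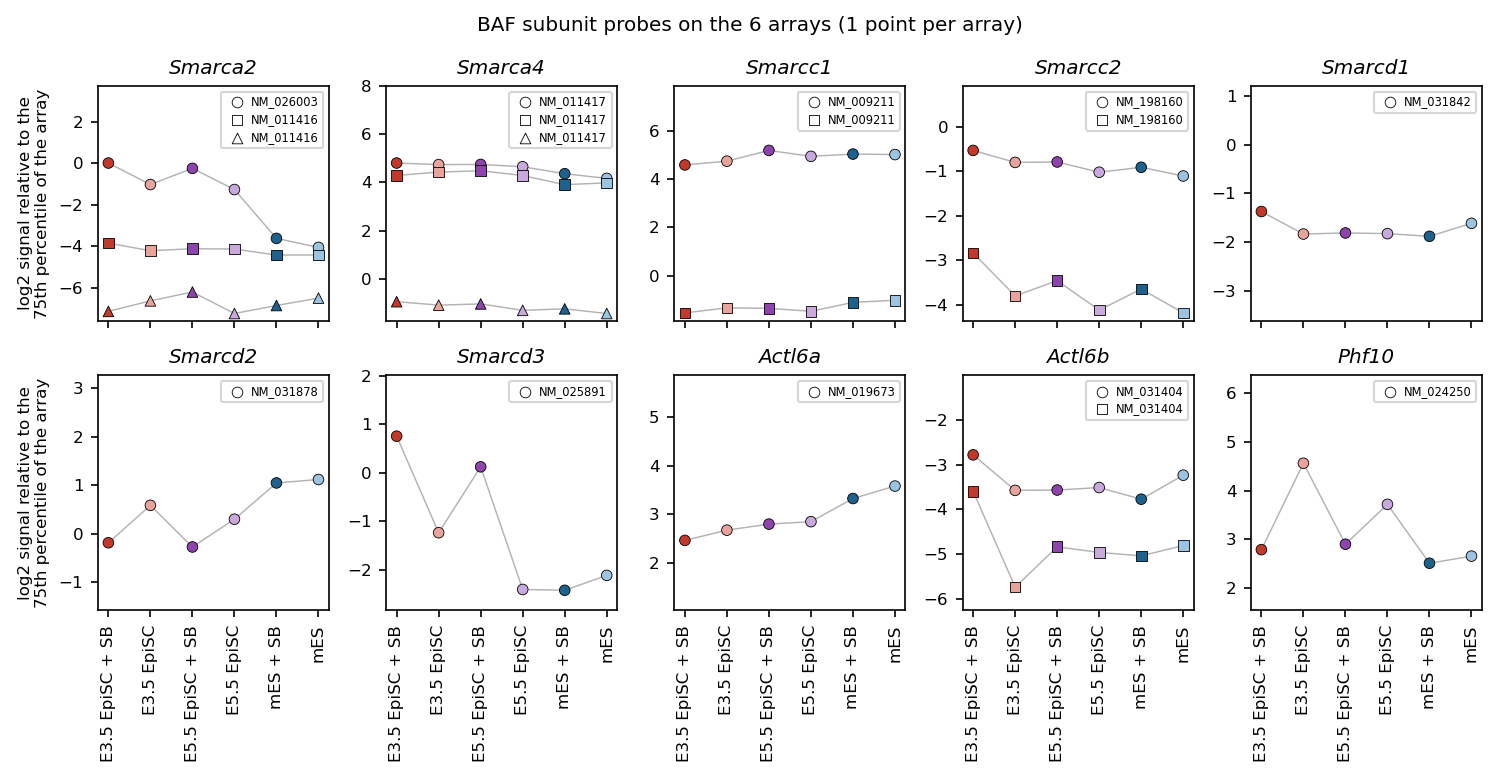
Log2 signal, scaled to each array's 75th percentile (vertical axis), of all 17 probes of the 10 BAF subunits on the 6 arrays (horizontal axis, 1 point per array, lines join the points of 1 probe, marker shapes distinguish the probes of a gene by accession). The circle series of Smarca2 lies between -1.27 and 0.01 on the 4 EpiSC arrays and at -3.63 and -4.06 on the mES arrays, and Smarcd3 is at 0.76 and 0.13 on the treated EpiSC arrays and at -1.23 or below on the other 4.

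Smarca2 and Smarca4 are the alternative ATPases of the complex. Among the 17 probes, 1 was called higher in EpiSC than in mES cells and 0 were called lower. Over all probes tested, 0.276% were called higher and 0.95% lower. The probe called higher was the Smarca2 probe to NM_026003, which read -1.03 in E3.5 EpiSC and -1.27 in E5.5 EpiSC, against -4.06 in mES cells. The EpiSC lines lay close together and both far above the mES array. The difference was 2.91 ± 0.36 on the log2 scale (SE; 95% interval 1.98 to 3.84; limma adjusted p = 0.0477), which corresponds to 8.17-fold in the E3.5 line and 6.91-fold in the E5.5 line. Within slide 1, which held the E5.5 EpiSC and the mES arrays, the value was 2.79. In bulk RNA, more cells that make a transcript and more transcript per cell cannot be told apart.

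No difference passed the test for the other Smarca2 probes. The brighter probe to NM_011416 read -4.22 in E3.5 EpiSC and -4.14 in E5.5 EpiSC, against -4.42 in mES cells, a difference of 0.25 ± 0.35 (SE; adjusted p = 0.837). The dimmer probe to that accession was well above background on 1 array, the treated E5.5 EpiSC, at -6.21, and no change is read from it. The rise in Smarca2 therefore rests on 1 of its 3 probes, and with all 3 probes of the gene averaged, the dim one included, it was 0.91 (adjusted p = 0.269). With any 1 EpiSC array left out the value stayed between 2.79 and 3.03, but it was not called without untreated E5.5 EpiSC (adjusted p = 0.0854) or without untreated E3.5 EpiSC (0.106), fits that called 465 and 503 probes. Without treated E5.5 or treated E3.5 EpiSC (0.0943 each) limma called 0 of the 37254 probes, with 6976 at an unadjusted p under 0.05, so the missing call there is not particular to Smarca2.

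Fibroblast and feeder cell markers, 10 genes that were all above background on every array, summed to 75.8 in E3.5 EpiSC and 120.3 in E5.5 EpiSC, against 43.5 in mES cells. Of their 17 probes, 5 were at least 2-fold higher and 2 at least 2-fold lower in E3.5 EpiSC than in mES cells, and 13 were higher and 0 lower in E5.5 EpiSC. The median log2 difference over the 17 probes was -0.10 in the E3.5 line, with 8 above 0, and 1.93 in the E5.5 line, with 17 above 0. By its median the list was thus higher in the E5.5 line only, while its sum was above that of mES cells in both lines. Tagln had log2 differences of 4.54 and 3.85 in the E3.5 and E5.5 lines and Timp3 had 1.75 and 2.88. The fibroblast collagen gene Col3a1 had -1.03 and 1.78, and Lum had -1.71 and 2.21. The part of these cells in the Smarca2 difference was not tested.

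With SB431542 the NM_026003 probe of Smarca2 read 0.01 in treated and -1.03 in untreated E3.5 EpiSC. In the E5.5 line it read -0.25 in treated and -1.27 in untreated cells. Both lines were thus 2-fold higher with the inhibitor, by 2.05-fold and 2.03-fold. The mean change was 1.03 ± 0.29 (SE; 95% interval 0.27 to 1.79), with a limma adjusted p of 0.184. It did not pass the test. In mES cells the same probe read -3.63 in treated and -4.06 in untreated cells, a change of 0.43, and the change in EpiSC minus that in mES cells was 0.60 ± 0.50 (SE; adjusted p = 0.914).

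Smarca4, the ATPase of the complexes typical of embryonic stem cells, varied little. Its brightest probe read 4.81 in treated and 4.74 in untreated E3.5 EpiSC, 4.75 in treated and 4.65 in untreated E5.5 EpiSC, and 4.36 in treated and 4.17 in untreated mES cells. All 4 EpiSC arrays were above both mES arrays, as they were for the second probe (4.29 to 4.48 against 3.91 and 3.98). For the third probe the groups overlapped. The difference between untreated EpiSC and mES cells was 0.53 ± 0.33, 0.38 ± 0.34 and 0.24 ± 0.34 for the 3 probes (SE; adjusted p = 0.578, 0.716 and 0.839), and none passed the test. For the brightest probe the 95% interval ran from -0.33 to 1.39. With SB431542 in EpiSC the 3 probes changed by 0.08, 0.03 and 0.21, each less than its SE.

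**Figure D2:**
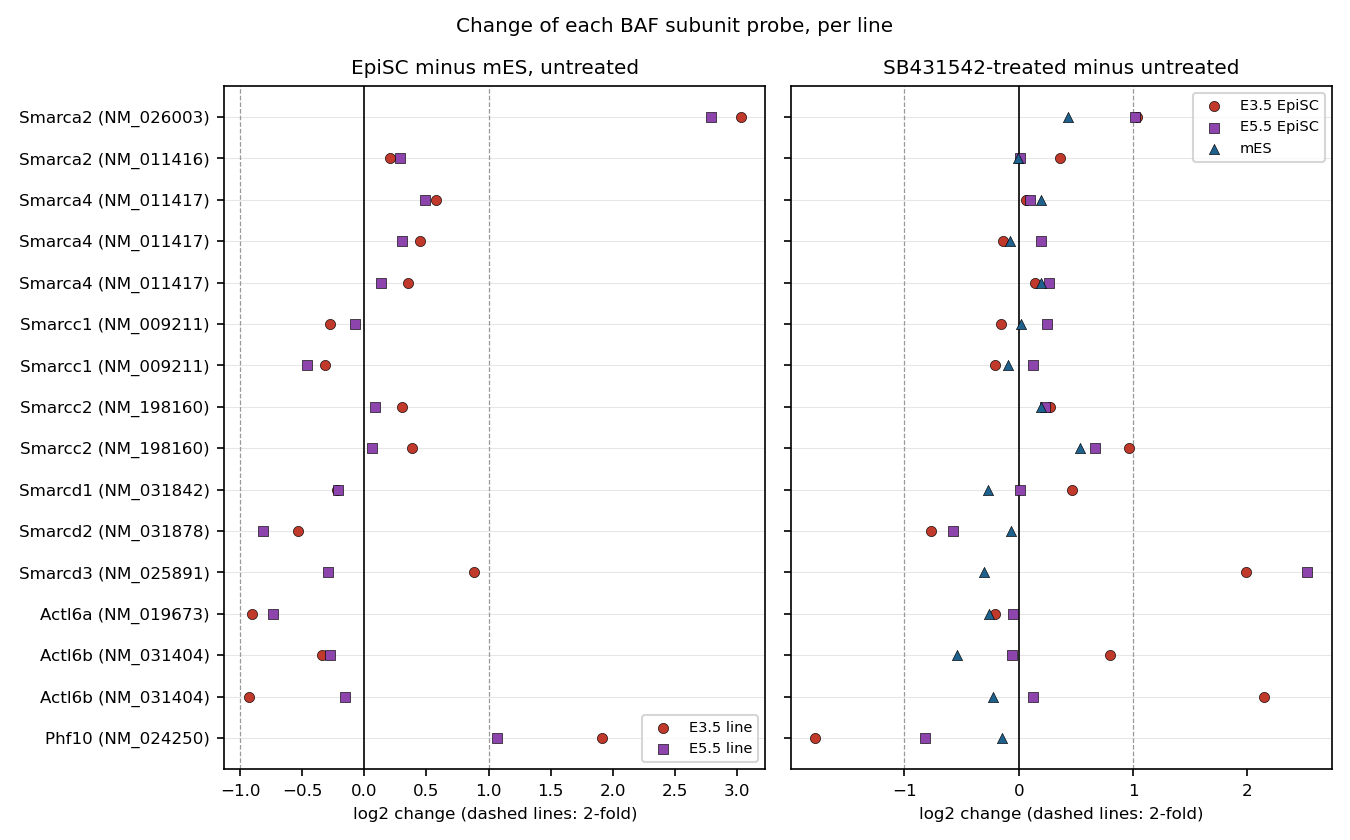
Log2 change (horizontal axis, dashed lines at 2-fold) of the 16 probes that were well above background on all arrays (vertical axis, gene and accession), for untreated EpiSC minus mES cells in each EpiSC line (left) and for SB431542-treated minus untreated cells in both EpiSC lines and in mES cells (right). Each point is the difference of 2 arrays, so there are no error bars. On the left the NM_026003 probe of Smarca2 is at 3.03 and 2.79, and on the right Smarcd3 is at 1.99 and 2.53 in EpiSC and -0.31 in mES cells.

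Smarcc1 and Smarcc2 are the scaffold subunits that hold the core of the complex together. The brighter Smarcc1 probe read 4.58 in treated and 4.74 in untreated E3.5 EpiSC, 5.18 in treated and 4.94 in untreated E5.5 EpiSC, and 5.03 in treated and 5.01 in untreated mES cells. On that probe EpiSC overlapped mES cells, and treated arrays overlapped untreated ones. On the dimmer Smarcc1 probe every EpiSC array (-1.54 to -1.33) was below the treated (-1.11) and untreated (-1.02) mES arrays. The differences between untreated EpiSC and mES cells were -0.17 ± 0.41 and -0.39 ± 0.34 for the Smarcc1 probes (SE; adjusted p = 0.917 and 0.705), and with SB431542 in EpiSC they were 0.04 and -0.04.

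Smarcc2, the scaffold paralogue that gains in share during neural differentiation, had a brighter probe that read -0.53 in treated and -0.80 in untreated E3.5 EpiSC, -0.79 in treated and -1.02 in untreated E5.5 EpiSC, and -0.91 in treated and -1.10 in untreated mES cells. Treated cells were higher than their untreated partner in all 3 pairs, by 0.20 to 0.27. The dimmer probe was higher in all 3 as well, by 0.97 in E3.5 EpiSC, 0.66 in E5.5 EpiSC and 0.54 in mES cells. Over the EpiSC lines the changes were 0.25 ± 0.29 and 0.82 ± 0.35 (SE; adjusted p = 0.659 and 0.305), and neither passed. Under other ways of processing or with an array left out, they ran from 0.12 to 0.53 and from 0.070 to 1.13. The size of the rise on the dimmer probe thus depended on the processing. The gap between EpiSC and mES cells was 0.20 and 0.22, below its SE for both probes.

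The Smarcd subunits occupy 1 position in the complex, through which transcription factors are known to contact it. Smarcd3 had the largest mean change with SB431542 over both EpiSC lines of the 10 genes, though in the E3.5 line alone an Actl6b probe had a larger one (2.14 against 1.99). It read 0.76 in treated and -1.23 in untreated E3.5 EpiSC. It read 0.13 in treated and -2.40 in untreated E5.5 EpiSC. In mES cells it read -2.42 in treated and -2.11 in untreated cells. Both treated EpiSC arrays were above all other arrays, 3.97-fold higher than the untreated array in the E3.5 line and 5.76-fold in the E5.5 line, while the treated mES array was 1.24-fold lower than its control.

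None of the 17 probes was called for SB431542 in EpiSC by limma (3 at an unadjusted p under 0.05: Smarca2, Smarcd3 and Phf10), where 1.58% of all probes tested were called and 18.5% had an unadjusted p under 0.05. The change of Smarcd3 was 2.26 ± 0.51 (SE; 95% interval 0.94 to 3.58; adjusted p = 0.125). With the cell line as a replicate block, which pairs each treated array with its untreated one, its SE was 0.31 and the adjusted p 0.0388, a call, in a fit that called 1427 probes against 587 without the block. It was also called after normexp background correction (2.02, adjusted p = 0.0270). The change in EpiSC minus that in mES cells was 2.56 ± 0.88 (SE; adjusted p = 0.686, or 0.276 with the block). In that comparison limma called 0% of the 37254 probes, with 2464 at an unadjusted p under 0.05. Within slide 1 the value for the E5.5 line was 2.83.

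Neuron markers moved with the treated EpiSC arrays. The 10 genes summed to 56.7 in treated and 8.10 in untreated E3.5 EpiSC, to 21.5 in treated and 7.27 in untreated E5.5 EpiSC, and to 6.48 in treated and 6.84 in untreated mES cells. Of their 18 probes, 3 were called higher and 0 lower with SB431542 in EpiSC, and 17 had a fitted change above 0 (median 2.87). The brightest probe of the neuron marker Stmn2 went the other way, by -0.13 in E3.5 and -1.51 in E5.5 EpiSC. Of the 8 neural progenitor probes 3 were called higher and 0 lower, and 8 had a fitted change above 0 (median 3.26). The 6 heart markers summed to 0.547 in treated and 0.469 in untreated E3.5 EpiSC, and to 2.40 in treated and 1.30 in untreated E5.5 EpiSC, and 0 of their 9 probes was called. The part of any of these cell types in the values of Smarcd3 or of the other subunits was not tested.

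Without the inhibitor, Smarcd3 differed between the EpiSC lines, at 2.25-fold higher in E3.5 than in E5.5 EpiSC. It was 0.88 above mES cells in the E3.5 line and 0.29 below in the E5.5 line, so the pooled difference of 0.29 ± 0.62 (SE; adjusted p = 0.903) joins lines of opposite sign.

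Smarcd2 took the opposite course to Smarcd3 in the treated EpiSC. It read -0.18 in treated and 0.59 in untreated E3.5 EpiSC, -0.27 in treated and 0.30 in untreated E5.5 EpiSC, and 1.05 in treated and 1.12 in untreated mES cells. Both treated EpiSC arrays were the lowest, and the mES arrays, treated and untreated, were the highest. The share of all probes with such an order is not given here, nor for the separations of arrays described for other subunits. The difference between untreated EpiSC and mES cells was -0.68 ± 0.35 and the change with SB431542 in EpiSC was -0.67 ± 0.28 (SE; adjusted p = 0.487 and 0.300), so neither step passed the test. Smarcd1, the paralogue typical of embryonic stem cells, stayed within a range of 0.51, between -1.88 in treated mES cells and -1.37 in treated E3.5 EpiSC. Its fitted differences were -0.22 ± 0.37 for EpiSC minus mES cells and 0.24 ± 0.30 for SB431542 in EpiSC (SE; adjusted p = 0.874 and 0.688).

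The promoter windows of the Smarcd genes are shown because the fitted changes of these paralogues with SB431542 differed in sign. Each holds 250 bases before and 50 bases after the gene's start in RefSeq (build GRCm38.p6), read 5′ to 3′ on the gene's strand. Capitals mark CAGAC or its reverse complement GTCTG, the core bound by Smad proteins, which carry the signal that SB431542 blocks. Smarcd3 lies at chr5:24601953-24602252 on the minus strand, Smarcd1 at chr15:99702037-99702336 on the plus strand and Smarcd2 at chr11:106267583-106267882 on the minus strand.
Smarcd3: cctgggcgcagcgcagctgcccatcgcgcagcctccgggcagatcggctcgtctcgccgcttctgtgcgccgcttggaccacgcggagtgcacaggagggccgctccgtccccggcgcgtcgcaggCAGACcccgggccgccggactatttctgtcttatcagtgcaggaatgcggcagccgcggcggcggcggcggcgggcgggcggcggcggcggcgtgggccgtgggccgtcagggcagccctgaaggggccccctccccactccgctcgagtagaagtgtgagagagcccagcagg
Smarcd1: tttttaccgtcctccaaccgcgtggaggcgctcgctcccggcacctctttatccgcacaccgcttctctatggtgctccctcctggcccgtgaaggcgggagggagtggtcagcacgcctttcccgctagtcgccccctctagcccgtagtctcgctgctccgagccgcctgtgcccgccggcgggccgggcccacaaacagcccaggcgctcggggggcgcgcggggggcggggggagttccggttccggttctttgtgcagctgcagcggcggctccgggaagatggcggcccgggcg
Smarcd2: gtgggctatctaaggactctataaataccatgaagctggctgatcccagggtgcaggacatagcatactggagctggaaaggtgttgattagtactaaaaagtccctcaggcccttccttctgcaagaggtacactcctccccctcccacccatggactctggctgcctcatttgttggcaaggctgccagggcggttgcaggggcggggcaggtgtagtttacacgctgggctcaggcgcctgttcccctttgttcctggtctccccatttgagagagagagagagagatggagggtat
The Smarcd3 window held 1 match and the windows of the other 9 genes 0, while 49.6% of all 32851 promoter windows of this length held at least 1 on either strand. The longer Foxh1 element TGTGGATT (reverse complement AATCCACA) was in 0.855% of windows and in 0 of the 10. The Smarcd3 and Smarcd1 windows held 40 and 35 CpG dinucleotides and the Smarcd2 window 4, with a median of 7 over all windows. A match in these letters is a description and not a binding site, and which start site these cells used was not measured.

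Actl6a and Actl6b are the actin-related subunits, exchanged for each other when neural progenitors become neurons. Actl6a read 2.46 in treated and 2.67 in untreated E3.5 EpiSC, 2.79 in treated and 2.85 in untreated E5.5 EpiSC, and 3.32 in treated and 3.58 in untreated mES cells. All 4 EpiSC arrays were below both mES arrays. The difference between untreated EpiSC and mES cells was -0.82 ± 0.36 (SE; 95% interval -1.76 to 0.12; adjusted p = 0.403), which did not pass, and SB431542 in EpiSC gave -0.13 ± 0.29 (SE; adjusted p = 0.825).

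Both Actl6b probes were highest on the same array. Its dimmer probe read -3.60 in treated and -5.74 in untreated E3.5 EpiSC, -4.84 in treated and -4.97 in untreated E5.5 EpiSC, and -5.04 in treated and -4.81 in untreated mES cells. The brighter probe read -2.78 in treated and -3.58 in untreated E3.5 EpiSC, -3.57 in treated and -3.52 in untreated E5.5 EpiSC, and -3.78 in treated and -3.24 in untreated mES cells. For both probes the treated E3.5 EpiSC array was the highest of the 6, and in the E5.5 line the change was 0.13 and -0.06. For the dimmer probe the untreated E3.5 EpiSC array was also the lowest of the 6, so its change there spans the extremes. The changes over both lines were 1.14 ± 0.54 and 0.37 ± 0.37 (SE; adjusted p = 0.341 and 0.615). Under other ways of processing or with an array left out, the change of the dimmer probe ran from 0.088 to 1.76. The treated E3.5 EpiSC array also had the highest summed level of neuron markers, 56.7, and lay alone on slide 3.

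Phf10, a PHD finger subunit of the complexes of stem and progenitor cells, was highest in untreated EpiSC. It read 2.78 in treated and 4.56 in untreated E3.5 EpiSC, 2.90 in treated and 3.72 in untreated E5.5 EpiSC, and 2.50 in treated and 2.65 in untreated mES cells. Untreated EpiSC were above every other array, 3.77-fold over mES cells in the E3.5 line and 2.09-fold in the E5.5 line. The difference from mES cells was 1.49 ± 0.47 (SE; 95% interval 0.26 to 2.72; adjusted p = 0.256). With SB431542 it was 3.43-fold lower in E3.5 and 1.77-fold lower in E5.5 EpiSC, a change of -1.30 ± 0.38 (SE; 95% interval -2.30 to -0.30; adjusted p = 0.197). Neither passed, and in mES cells the change was -0.15.

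By the 2-fold rule, 2 of the 17 probes (Phf10 and the NM_026003 probe of Smarca2) were higher in both EpiSC lines than in mES cells and 0 were lower, against 6.97% and 7.19% of all probes tested. Smarca2 and Smarcd3 were 2-fold higher with SB431542 in both EpiSC lines, 2 of 17 against 5.47% of all probes, and 0 of 17 was lower against 4.59%. In mES cells 0 of 17 probes moved 2-fold with the inhibitor, where 2.43% of all probes did. The median over the 17 probes was 0.20 for EpiSC minus mES cells and 0.21 for SB431542 in EpiSC, beside -0.06 and -0.10 over all probes tested. With so few probes these shares do not set the subunits apart from the rest of the array.

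**Figure D3:**
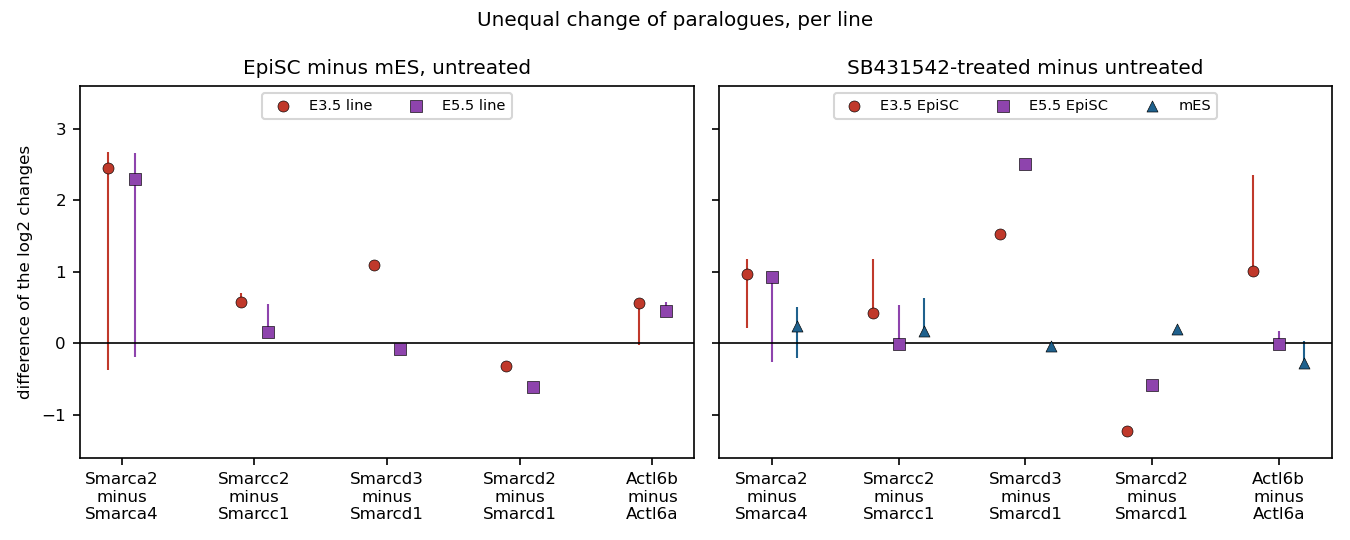
Change of 1 paralogue minus change of the other (vertical axis, log2 units), for 5 pairs of BAF subunits (horizontal axis), in untreated EpiSC minus mES cells (left) and in SB431542-treated minus untreated cells (right). Points use the brightest probe of each gene in each line, and vertical lines run from the lowest to the highest value over all combinations of probes well above background on both arrays. Smarcd3 minus Smarcd1 is at 1.52 and 2.51 in the treated EpiSC lines and at -0.04 in mES cells. The Smarca2 minus Smarca4 lines cross 0 on the left, and on the right in the E5.5 line and mES cells.

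The paralogues of a position were then compared by the difference of their changes, using the brightest probe of each gene. Smarca2 exceeded Smarca4 by 2.38 ± 0.11 in EpiSC relative to mES cells and by 0.95 ± 0.03 with SB431542 in EpiSC (SD over the 2 lines), and by 0.24 with SB431542 in mES cells. The sign of this difference depended on the Smarca2 probe: over all combinations of probes well above background, EpiSC minus mES cells ran from -0.37 to 2.68 in the E3.5 line and from -0.20 to 2.66 in the E5.5 line. With SB431542 the combinations ran from 0.22 to 1.18 in the E3.5 line and from -0.26 to 0.92 in the E5.5 line. In mES cells they ran from -0.20 to 0.51. Smarcd3 exceeded Smarcd1 by 2.02 ± 0.70 with SB431542 in EpiSC (SD, 2 lines), where mES cells gave -0.04. Between EpiSC and mES cells the same pair gave 0.51 ± 0.83, a mean below its spread.

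Smarcd2 was below Smarcd1 in both comparisons: the difference was -0.46 ± 0.21 between EpiSC and mES cells and -0.91 ± 0.46 with SB431542 in EpiSC (SD, 2 lines). Smarcc2 exceeded Smarcc1 by 0.37 ± 0.30 and 0.21 ± 0.31 in the same comparisons, each about the size of the spread between lines. Between EpiSC and mES cells the change of Actl6b minus that of Actl6a was 0.51 ± 0.08. On these probes both genes read lower in EpiSC, and neither fitted difference passed the test. Actl6b was at -0.34 and -0.28 and Actl6a at -0.91 and -0.73 (E3.5 and E5.5 lines). With SB431542 the pair gave 0.50 ± 0.71, which came from 1.01 in the E3.5 line and a value near 0 in the E5.5 line. With the dimmer Actl6b probe the pair gave -0.022 between E3.5 EpiSC and mES cells and 0.58 between E5.5 EpiSC and mES cells, and 2.36 and 0.18 with SB431542 in these lines. The pairs of state and drug share the untreated EpiSC arrays. The EpiSC values of both lines are set against the same mES array, whose spread no SD here includes, and pair values have no test.

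The remaining genes of the BAF family formed a list of 20, of which 18 had a named probe (30 probes). By the 2-fold rule, 6 of the 30 were higher in both EpiSC lines than in mES cells and 0 were lower, against 6.97% and 7.19% of all probes tested. With SB431542, 2 were higher and 3 lower in both EpiSC lines, against 5.47% and 4.59%. These counts had no test. Of the 30, 0 was called in either comparison by limma (7 at an unadjusted p under 0.05 for EpiSC minus mES cells and 9 for SB431542 in EpiSC). Over all probes tested, 14.8% and 18.5% had such a p in these comparisons, and 1.23% and 1.58% were called. Bcl11a, a zinc finger protein that associates with BAF in brain and blood, came nearest. Its first probe read -0.54 in treated and 1.48 in untreated E3.5 EpiSC, -0.27 in treated and 1.47 in untreated E5.5 EpiSC, and -2.71 in treated and -0.28 in untreated mES cells. It was thus higher in both untreated EpiSC lines than in mES cells, by 1.75 ± 0.34 (SE; adjusted p = 0.113), and lower with the inhibitor in all 3 pairs of cultures. The change with SB431542 in EpiSC was -1.88 ± 0.28 (SE; adjusted p = 0.0625, or 0.0488 with the line as a replicate block). In mES cells it was -2.43, and the difference between the changes was 0.56 ± 0.49 (SE; adjusted p = 0.914). The second Bcl11a probe had 1.73 ± 0.36 for EpiSC minus mES cells and -1.84 ± 0.30 for SB431542 in EpiSC (SE; adjusted p = 0.126 and 0.0711), and was not called with the block either (adjusted p = 0.0575). Its change in mES cells was -1.40, and its difference between the changes was -0.44 ± 0.51, opposite in sign to that of the first probe (SE; adjusted p = 0.925).

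Bcl11b, its paralogue, had 1.45 ± 0.38 for EpiSC minus mES cells and -1.97 ± 0.31 for SB431542 in EpiSC on its brighter probe (SE; adjusted p = 0.185 and 0.0675). Arid1b, a DNA-binding subunit, and Smarce1, an HMG-box subunit, each had 1 of 2 probes that was 2-fold higher in both EpiSC lines than in mES cells, by 1.16 and 1.05 for Arid1b and by 1.63 and 1.66 for Smarce1 (E3.5 and E5.5 lines; limma adjusted p = 0.289 and 0.144). Dpf3 and Ss18l1 are subunits that enter the complex in neurons. Dpf3 and the dimmer of 2 Ss18l1 probes were 2-fold higher with SB431542 in both EpiSC lines, by 1.09 ± 0.29 and 1.66 ± 0.47 (SE; adjusted p = 0.162 and 0.184). The Dpf3 probe was dim: it read -3.83 in treated and -4.87 in untreated E3.5 EpiSC, and -3.57 and -4.70 in E5.5 EpiSC. In mES cells it read -4.24 in treated and -3.93 in untreated cells, the latter above both untreated EpiSC lines. The brighter Ss18l1 probe had -0.48 and was lower in both lines (-0.68 in E3.5 and -0.28 in E5.5 EpiSC), so the probes of that gene disagreed in sign.

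**Figure D4:**
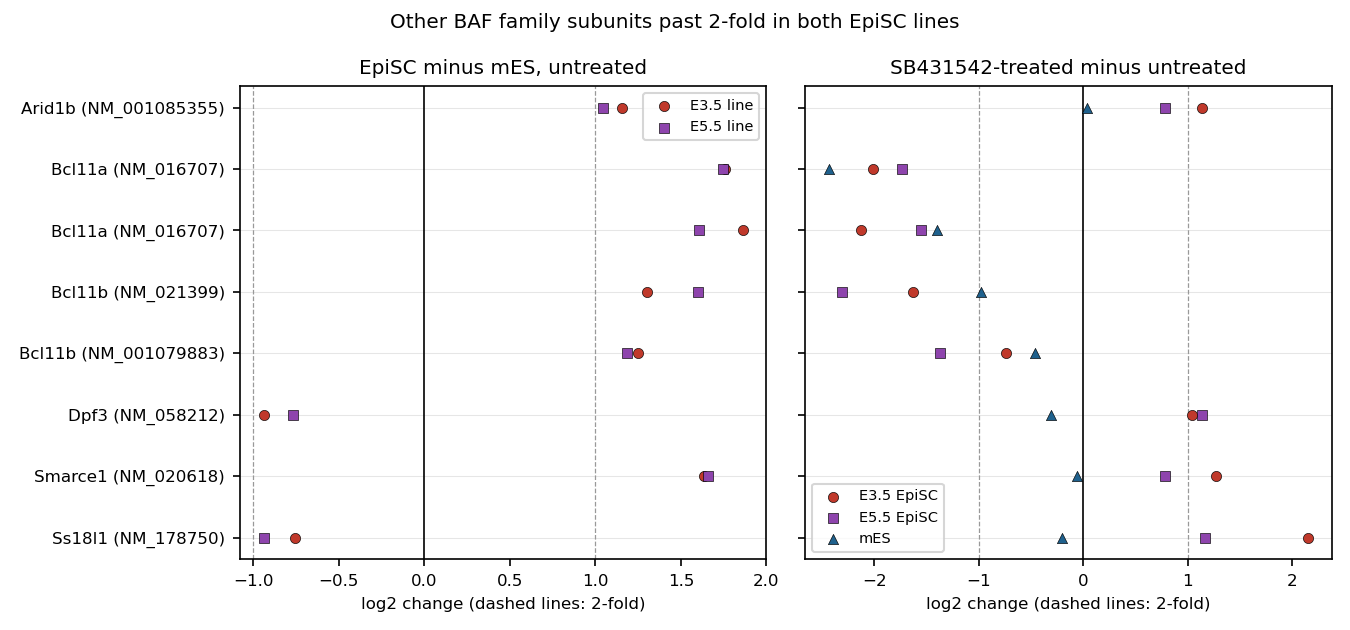
Log2 change (horizontal axis, dashed lines at 2-fold) of the 8 probes of other BAF family genes that were at least 2-fold apart in both EpiSC lines in either comparison (vertical axis, gene and accession), laid out as for the 16 subunit probes. Each point is the difference of 2 arrays. The first Bcl11a row is at 1.76 and 1.75 on the left, and on the right at -2.02 and -1.73 in EpiSC and -2.43 in mES cells.

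The probes most like the NM_026003 probe of Smarca2 over the 6 arrays, by the root mean square difference of centred log2 signal among 20606 named probes, were Fat3 (0.10), Selenon (0.14) and Ttyh3 (0.19). Those most like Smarcd3 were Zfp811 (0.22), Synpr (0.25) and Metrnl (0.26). The 6 arrays, from 3 lines, carry these likenesses, which are given as a description.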

How the data were processed

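One-colour arrays measured Cy3-labelled cRNA made from the total RNA of 6 cultures, per the labels. The intensity of each spot, background-subtracted, was deposited by the authors. Per the file headers it came from Feature Extraction 10.7.1.1, while the submitters' processing notes name version 9.1 of Agilent's program, and this was not settled. Control and outlier spots were left out, repeat spots averaged, and log2 intensity minus the array's 75th percentile (1190 to 1801 intensity units) was used. A deposited value table held the same intensity at 45018 of 45018 values (medians 181.8 to 269.6, linear, not centred). On each array 82.6% to 85.7% of probes were well above background and 0 spots were saturated. The number of arrays limits precision.

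The files hold no gene names: 24367 of 41174 probes were named by RefSeq accession (GRCm38.p6) and 16807 were not. Tests used limma 3.58.1 in R 4.3.3 (2 residual degrees of freedom), tested on simulated data. The EpiSC replicates are separate lines, 1 array each per condition. No label describes repeat cultures of a line, so p-values rest on the scatter between those lines, part of which may be technical. Treated and untreated arrays share a cell line (the gaps between lines correlated at 0.29 over probes).

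The members and lists were chosen with earlier results of these data known. Named were all member probes, and other family genes called or 2-fold apart in both EpiSC lines. Alternatives were background (normexp, offset 50, on the median signal, since no mean signal was in the files), scaling, filter, probe choice, value table, line block and leaving out arrays.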

Additional observations from a re-analysis of the deposited data

Results flagged for a closer look

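Smarcd3 was picked out because the change of its probe with SB431542 differed in sign between the cell classes. Both treated EpiSC arrays were higher than their untreated partners, by 1.99 and 2.53 on the log2 scale. The treated mES array had a change of -0.31, which is under 2-fold and has no replicate. The change in EpiSC minus that in mES cells was 2.56 (limma adjusted p = 0.686), so the difference did not pass the test.

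The dimmer Actl6b probe was picked out for the same reason, with changes of 2.14 in E3.5 EpiSC, 0.13 in E5.5 EpiSC and -0.23 in mES cells. Those in E5.5 EpiSC and mES cells were under 2-fold. The change in EpiSC minus that in mES cells was 1.37 (limma adjusted p = 0.913), and it did not pass the test. Under other ways of processing or with an array left out, this difference ran from 0.21 to 1.99.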

How the results depend on the processing

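The number of arrays sets the limits: each class had at most 2 arrays a condition, and the lone mES arrays had no spread of their own. Leaving out any 1 EpiSC array, treated or untreated, left 1 residual degree of freedom. Counts of called probes varied most. For EpiSC minus mES cells, 457 probes were called (103 higher, 354 lower), 242 with 1 probe per gene, 199 with the probes of a gene averaged, and 202 higher and 304 lower after normexp. Leaving out an array gave 0 (without treated E5.5 or treated E3.5 EpiSC, with 6976 at an unadjusted p under 0.05 each) to 503. The count of called subunit probes was 1, but 0 with no filter on dim probes (Smarca2 adjusted p = 0.0507), 0 with averaged probes and 0 to 1 when an array was left out. For SB431542 in EpiSC, 587 probes were called (318 higher, 269 lower), 977 after normexp (419 higher, 558 lower), 952 among probes above background on all 6 arrays, 338 with 1 probe per gene, 299 with averaged probes, 1427 with the line as a replicate block and 0 to 587 when an array was left out. The 0 counts were without treated E5.5 EpiSC (11054 at an unadjusted p under 0.05) and without treated E3.5 EpiSC (5153). The count of subunit probes was 0, but 1 after normexp and 1 with the replicate block, in both cases Smarcd3. For the difference of the SB431542 effects, the count over all probes was 0, and 1 after normexp, and 0 subunit probes were called in either. The replicate block changed no other call of the 17 probes. The value table gave the same values, the array medians used in median scaling lay at -2.70 to -2.61 on the scale of the 75th percentile, and slide as a random block was not run because its correlation could not be estimated from 2 residual degrees of freedom.

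Of 636 values of the 16 subunit probes above background on all arrays under alternatives, 598 kept their direction and side of the threshold, 2 were newly called, 6 lost a call and 30 changed sign. The cause was not tested, and no value that changed sign was called. Of 120 values of paralogue pairs, 47 moved by more than the spread between lines, with combinations of the dim Smarca2 probe left out. Between EpiSC and mES cells, normexp turned Smarcd1 to 0.10 and the Actl6b probes to 0.073 and 0.16, and Smarcd3 ran from -0.29 to 0.88 when an array was left out. For SB431542 in EpiSC, normexp turned the brighter NM_011416 probe of Smarca2 to -0.30 and the brighter Actl6b probe to -0.059, and quantile normalization turned Actl6a to 0.020. Leaving out an array there gave -0.067 to 0.13 for a Smarca4 probe, -0.26 to 0.34 and -0.14 to 0.052 for the Smarcc1 probes, -0.30 to 0.037 for Actl6a and -0.024 to 0.76 for the brighter Actl6b probe. For the difference of the effects, normexp turned the brighter NM_011416 probe of Smarca2 to -0.31, a Smarcc1 probe to -0.18 and a Smarcc2 probe to -0.26, and the brightest Smarca4 probe was 0.26 after quantile normalization and 0.00033 with averaged probes. Leaving out an array gave -0.10 to 0.12 for the dimmest Smarca4 probe, -0.28 to 0.32 and -0.048 to 0.14 for the Smarcc1 probes, -0.075 to 0.19 and -0.035 to 0.59 for the Smarcc2 probes, and -0.042 to 0.29 for Actl6a.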

Other observations

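Pbrm1, the bromodomain subunit that defines the PBAF form of the complex, had 4 probes. All 4 were higher in both EpiSC lines than in mES cells, with fitted differences of 0.47, 0.71, 0.86 and 0.99 on the log2 scale (limma adjusted p from 0.310 to 0.647), and none passed the test. With SB431542 in EpiSC the same 4 probes had fitted changes from -0.11 to 0.07, each below its SE. Arid2, another PBAF subunit, had differences of 0.34 and 0.57 between EpiSC and mES cells, and Brd7 had -0.05 and 0.11. Bcl7a, a small subunit of the core complex, had 1.14 ± 0.28 with SB431542 in EpiSC (SE; adjusted p = 0.148) and 0.09 in mES cells.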
